A study of Mus musculus with 4 samples.

Results

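The list described here holds the transketolase ChIP-seq peaks of the VEGFA-induced mouse retina, called by the authors against the input DNA of the same tissue. Every peak of the induced comparison was taken, once per position, which gave 30791 of the 49058 peaks in the series. The remaining 18267 peaks came from noninduced retina. Both groups carried the Tet-opsin-VEGFA transgene, and they differed by its induction; the labels give the tissue as retina and the cells as retinal, and give no age, sex, inducing agent or length of induction. The opsin part of the transgene name refers to a promoter of photoreceptors, so VEGFA was driven from one cell class of a tissue that was collected whole. For each condition 2 retinas were collected, crosslinked with methanol and sonicated. A transketolase antibody then precipitated the DNA, which was sequenced as paired reads. A single ChIP library stands behind every value below, so the spread between animals is unknown and no difference was tested.

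Transketolase is a thiamine-dependent enzyme of the non-oxidative pentose phosphate pathway, where it moves carbon units between sugar phosphates and links that pathway to glycolysis. ChIP-seq recovers DNA that was near a protein at crosslinking, and a peak marks a stretch where ChIP reads pile up over a background. VEGFA is the growth factor that drives vessel growth and leakage in the retina, and the endoplasmic reticulum (ER) stress response, which the series title names, is the program by which cells raise chaperones such as Hspa5 when secretory proteins misfold. Many of the genes below have processed pseudogenes. These are copies of a spliced messenger RNA that were inserted elsewhere in the genome, without introns and with a sequence close to the exons of the parent gene.

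A few sequences place the results on the genome. The first set is 3 promoters, each given as the 250 bases before the start site (RefSeq, GRCm38.p6). They are shown because a peak of at least 20-fold, outside pseudogenes, covered bases before the start site, which few peaks did; they were chosen after their values were seen. Capitals mark the GC box (GGGCGG), the CCAAT box (CCAAT), the TATA box (TATAAA) and a heat shock element (GAANNTTC), each searched on both strands. Vim encodes vimentin, an intermediate filament of Müller glia, and its promoter lies at chr2:13574061-13574310 on the plus strand. Hspa1b encodes an inducible HSP70 chaperone, and its promoter lies at chr17:34959239-34959488 on the minus strand. Serbp1 encodes an RNA-binding protein, and its promoter lies at chr6:67266729-67266978 on the plus strand.
Vim promoter: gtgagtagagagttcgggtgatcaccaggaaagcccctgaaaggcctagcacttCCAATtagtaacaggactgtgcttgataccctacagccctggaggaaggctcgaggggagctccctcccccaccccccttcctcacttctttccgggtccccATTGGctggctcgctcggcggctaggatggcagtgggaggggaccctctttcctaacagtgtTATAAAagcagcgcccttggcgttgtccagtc
Hspa1b promoter: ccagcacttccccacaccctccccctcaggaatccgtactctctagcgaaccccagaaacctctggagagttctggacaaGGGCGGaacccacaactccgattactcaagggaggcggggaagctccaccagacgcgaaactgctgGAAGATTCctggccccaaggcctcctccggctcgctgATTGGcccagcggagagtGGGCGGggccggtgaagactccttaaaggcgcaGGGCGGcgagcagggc
Serbp1 promoter: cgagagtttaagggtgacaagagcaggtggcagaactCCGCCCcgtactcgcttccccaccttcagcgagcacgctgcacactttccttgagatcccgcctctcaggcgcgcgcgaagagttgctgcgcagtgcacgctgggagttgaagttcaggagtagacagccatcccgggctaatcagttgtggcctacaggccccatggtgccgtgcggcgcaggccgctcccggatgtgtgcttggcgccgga

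The second set is microRNAs whose hairpin lay under a peak of at least 30-fold, with the seed (bases 2 to 8) in capitals (RefSeq, GRCm38.p6). No seed is shared among the sequences shown.
mmu-miR-682: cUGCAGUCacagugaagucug
mmu-miR-3064-5p: uCUGGCUGuuguggugugcaaa
mmu-miR-3064-3p: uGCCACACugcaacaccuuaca
mmu-miR-686: aUUGCUUCccagacggugaaga
mmu-miR-6935-3p: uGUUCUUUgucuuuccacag
mmu-miR-677-5p: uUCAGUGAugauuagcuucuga
mmu-miR-677-3p: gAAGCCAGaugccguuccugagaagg

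Most peaks were shallow. The 30791 peaks held 472950 ChIP tags over 17.1 Mb, and a peak had a median of 11 tags (range 10 to 9070) and a median length of 551 bp (216 to 6221). Peaks of exactly 10 tags, the lowest number listed, made up 35.5% of the list (10936 peaks), and 82.0% had 10 to 13 tags. Tag density, the tag count divided by peak length, had a median of 21.0 tags per kb, a 5th percentile of 17.1 and a 95th percentile of 37.5, so most peaks differed little from each other. The upper end reached 3641 tags per kb, 174 times the median. The 300 densest peaks, which are 0.974% of the list and are called dense below, held 79918 tags, or 16.9% of the total. Their lower edge had no gap: the last dense peak had 124.2 tags per kb and the next peak 124.0.

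The authors' fold enrichment, which sets a peak against a background that is not specified in the sources used here, had a median of 8.59 and ran from 2.34 to 456.36. Density and fold share the tag count, and over the 30791 peaks their rank correlation was 0.566, given as a description. Peaks of at least 20-fold numbered 1073, or 3.48% of the list. Among the dense peaks 279 reached 20-fold and 21 did not, and these 2 sets lay over different parts of the genome. Tags divided by fold give a description of how far the 2 measures part; the quotient is not a measured background. It had a median of 39.9 tags (5.72 to 3160) for the 21 dense peaks under 20-fold, against 1.25 tags (0.931 to 5.64) for the 279 dense peaks of at least 20-fold.

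**Figure D1:**
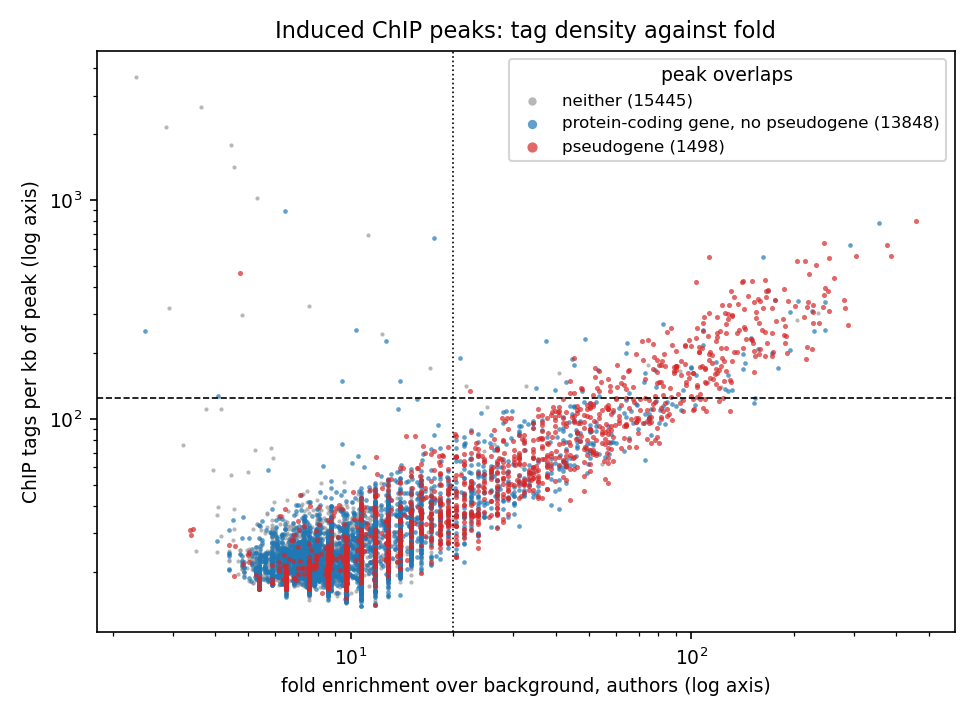
ChIP tags per kb of peak (vertical, log axis) against the authors' fold enrichment (horizontal, log axis) for the 30791 induced peaks, 1 point per peak, coloured by overlap with an annotated pseudogene, a protein-coding gene only, or neither; the dashed line is the lower edge of the 300 densest peaks and the dotted line is 20-fold. Dense peaks fall into a group of 21 left of 20-fold, led by 3641 tags per kb at 2.34-fold, and a group of 279 to the right, of which most overlap pseudogenes.

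The 21 dense peaks of low fold included 8 of the 10 densest peaks of the list. The densest of all (chromosome 2, 98666140 to 98667438, mm10) held 4730 tags, or 3641 tags per kb, at 2.34-fold. It was assigned to Lrrc4c, a synaptic adhesion gene, from a distance of 1199132 bp, and 2 neighbouring peaks on chromosome 2 followed with 1789 tags per kb at 4.46-fold and 1420 tags per kb at 4.54-fold. These 3 peaks lay close together and overlapped no annotated coding gene or pseudogene.

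The peak with the most tags, 9070 tags at 2.87-fold, lay on chromosome 14 (19415501 to 19419716) and overlapped no annotated coding gene or pseudogene. The peak assigned to 4933422A05Rik on chromosome 9 had 2652 tags per kb at 3.63-fold, and that assigned to Rab10os on chromosome 12 had 1025 tags per kb at 5.30-fold. An exon peak of Rn45s, the locus of the 45S ribosomal RNA precursor, held 2876 tags (462 tags per kb) at 4.73-fold. Of the 21 peaks, 12 overlapped neither a coding gene nor a pseudogene.

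Introns held other members of the low-fold set. Chl1, a neural adhesion molecule, had an intron peak of 671 tags, or 886 tags per kb, at 6.43-fold. An intron shared by Filip1l and Cmss1 held 497 tags, or 673 tags per kb, at 17.5-fold. Flt1 encodes VEGF receptor 1, which binds VEGFA. Its intron held a 322 bp peak (chromosome 5, 147611369 to 147611690) of 81 tags, 252 tags per kb, at 2.49-fold. Like the other low-fold members, the Flt1 peak combined a high tag density with a fold under 20. The whole set of 21 held 24555 tags, or 5.19% of all tags in the list, against 55363 tags (11.7%) in the 279 dense peaks of at least 20-fold. Whether these positions are also high in the input could not be read from the files, which give tags for the ChIP library alone.

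Dense peaks of high fold lay mostly on pseudogenes. Of the 300 dense peaks, 220 overlapped an annotated pseudogene (73.3%, 95% Wilson interval 68.1 to 78.0), against 4.19% of the 30491 other peaks. The overlap was 219 of 279 (78.5%, 73.3 to 82.9) at 20-fold or more and 1 of 21 below it. Another 58 dense peaks (19.3%) lay over a protein-coding gene with no pseudogene, against 45.2% of the other peaks, and 22 (7.33%) lay over neither, against 50.6%. These intervals cover counting error only, and the reads carry no molecular identifiers. A read from a processed pseudogene and one from its parent exon can be nearly identical, and how such reads were placed is not given in the sources used here, so the assignment of tags between these copies is uncertain.

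Pseudogenes made up a smaller share at lower ranks. The share was 73.0% in ranks 1 to 100, 73.5% in ranks 101 to 300, 56.9% in ranks 301 to 1000, 13.3% in ranks 1001 to 3000, 3.14% in ranks 3001 to 10000 and 1.90% below that. The exon class was most frequent in the middle, with 15.3% of ranks 301 to 1000 against 2.15% of the lowest bin. Promoters followed the same course, with 13.3% in ranks 301 to 1000 and 5.23% in the lowest bin. The median fold was 162.3 in ranks 1 to 100 and 8.59 in the lowest bin.

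**Figure D2:**
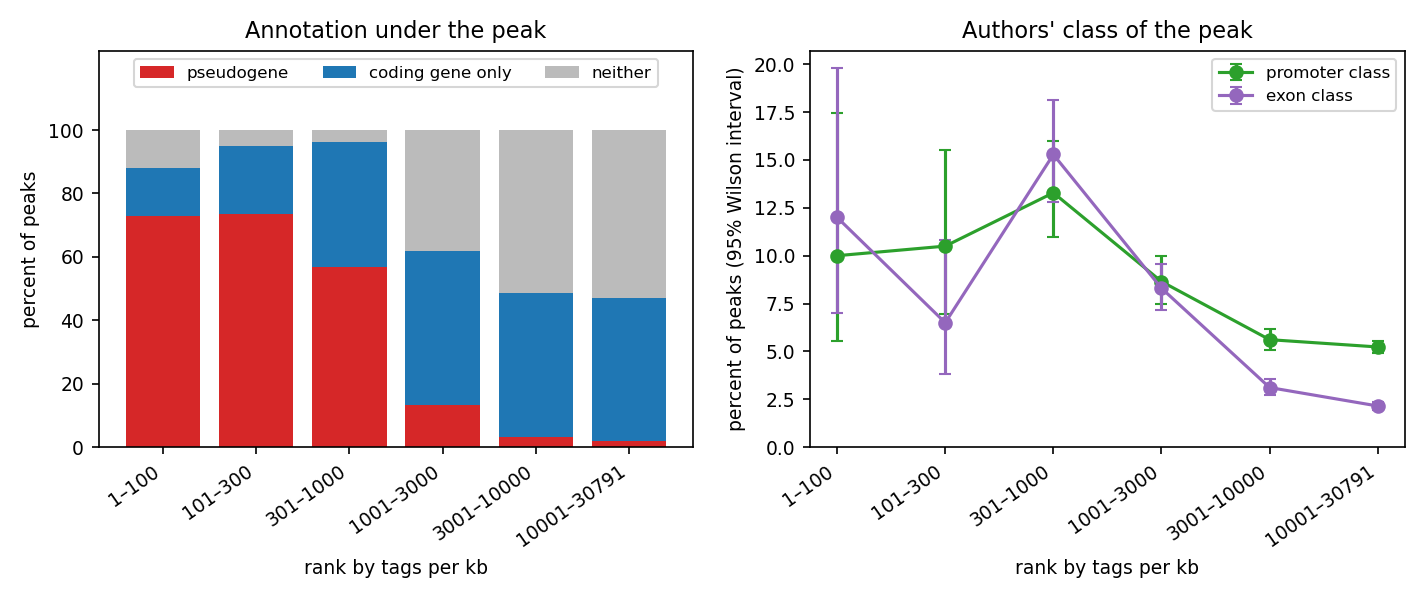
Left, percent of peaks over a pseudogene, over a protein-coding gene only, or over neither, for 6 bins of rank by tags per kb; right, percent of peaks in the authors' promoter and exon classes for the same bins, with 95% Wilson intervals as bars. Pseudogenes make up 73.0% of ranks 1 to 100 and 1.90% of the lowest bin, and the exon and promoter classes are highest in ranks 301 to 1000.

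The highest fold in the list, 456.36, belonged to a pseudogene peak. It lay over Gm6789 on chromosome 18 (63543594 to 63544393), held 639 tags at 799 tags per kb, and was assigned to Txnl1, a thioredoxin-like gene, from a distance of 148366 bp. The pseudogene Gm13456 on chromosome 2, assigned to Ppp6c, held 1230 tags at 375-fold. Rps19-ps6, a copy of a small-subunit ribosomal protein gene, lay under a peak of 491 tags at 385-fold on chromosome 12, which the list assigns upstream of Cinp. Each of these peaks was named for a gene other than the pseudogene under it.

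Similar peaks lay over Gm4748 and Gm12481 in an intron of Fam221b (350 tags, 245-fold), over Gm6204, assigned to Frem2 (310 tags, 304-fold), over Gm6061, assigned to Dnttip2 (320 tags, 113-fold) and over Gm15500, assigned to Calcb (456 tags, 254-fold). The peak of the ubiquitin pseudogene Ubb-ps on chromosome 14 held 481 tags, or 526 tags per kb, at 204-fold. These 5 peaks ranked among the 21 densest of the list.

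Counted by pseudogene, 1376 of 10609 annotated pseudogenes (13.0%) lay under a peak and 218 (2.05%) under a dense one. Pseudogenes named after a coding parent carried peaks more often, at 240 of 723 (33.2%), against 1136 of 9886 (11.5%) for those with other names. Those of cytosolic ribosomal protein genes stood highest, with 123 of 316 under a peak (38.9%, 33.7 to 44.4) and 48 under a dense peak (15.2%, 11.7 to 19.6). Pseudogenes of other named parents had a dense peak in 15 of 407 cases (3.69%).

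Among single parents, Rpl17 had 11 named pseudogenes on chromosomes 1 to 19, X and Y, of which 7 had a peak and 4 a dense one. The densest of these reached 201 tags per kb, while the Rpl17 gene itself reached 37.6. Rps18 had 3 dense pseudogene peaks out of 5 copies, up to 386 tags per kb, and its own gene reached 107. Values at parent genes leave out peaks that overlap a pseudogene. Rpl10 and Gapdh had no peak of that kind at the parent gene, while their pseudogenes reached 384 and 336 tags per kb. Eef1a1 went the other way, with 548 tags per kb at the gene and 367 at Eef1a1-ps1. Over all named copies, 46 of 83 had a peak (55.4%) where the parent's densest peak outside pseudogenes was of at least 20-fold. Of the other named copies, 194 of 640 had a peak (30.3%).

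Outside pseudogenes, the dense peaks over coding genes included those of ubiquitin, translation, cytoskeletal and RNA-binding proteins, and also Chl1, Flt1 and Vgf. A dense peak inside the gene was found for 60 of 21887 protein-coding genes (0.274%), and one of at least 20-fold for 347 (1.59%). The 21 gene lists used below hold 25 of those 60 genes and 88 of the 347, while they hold 614 of all coding genes. Some of the 60 share a peak with an overlapping gene, as Hspa5 does with Rabepk.

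Ubb, which encodes polyubiquitin, was among the leading genes. Its peak had 847 tags over 1362 bp, or 622 tags per kb, at 292-fold, centred 720 bp after its start site. The ubiquitin fusion gene Rps27a, by contrast, had a densest peak of 25.1 tags per kb, and the ferritin genes Ftl1 and Fth1 had 29.8 and 24.5. Ubb was thus far above these members of the ubiquitin and ferritin list in tags per kb.

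Translation factors were next. Eef1a1, which delivers aminoacyl-tRNA to the ribosome, had an exon peak of 296 tags at 548 tags per kb and 162-fold, and a second dense peak of 162 tags closer to its start site. Pabpc1, the cytoplasmic poly(A)-binding protein, had 384 tags per kb in an exon 13063 bp after the start site and 348 tags per kb in its promoter. Its 5 peaks within 13.3 kb held 516 tags. Eif4g2, an initiation factor, had 254 tags at 199 tags per kb. Of 20 translation factor genes, 15 had a peak inside the gene (75.0%, against 33.3% of all coding genes). One of at least 20-fold was found in 8 (40.0%, against 1.59%) and a dense one in 3 (15.0%, against 0.274%).

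Cytoskeletal genes formed the largest group of dense peaks, with 9 of 28 members (32.1%, against 0.274% of all coding genes). Tuba1b, Tuba1c and Tuba1a, which encode alpha-tubulins, had 345, 307 and 206 tags per kb; the list assigns the Tuba1a peak upstream of Tuba1b, although it overlaps Tuba1a. The beta-tubulin gene Tubb5 had 464 tags at 312 tags per kb, and Actb, the cytoplasmic beta-actin gene, had 510 tags at 254 tags per kb and 248-fold. The neuronal tubulin gene Tubb3 closed the dense set of this list, with 187 tags at 124 tags per kb. Over the list, 19 of 28 genes (67.9%) had a peak of at least 20-fold, and the median of the densest peak per gene was 112 tags per kb, against 22.8 for all coding genes with a peak. Tubulin genes are alike in sequence, so reads may be shared among them.

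Genes of heterogeneous nuclear ribonucleoproteins, which bind pre-mRNA, had a peak inside in 20 of 22 cases (90.9%, against 33.3% of all coding genes). A peak of at least 20-fold was found in 15 (68.2%, against 1.59%) and a dense one in 4 (18.2%, against 0.274%). Hnrnpm had 124 tags at 254 tags per kb, and Hnrnpa1 had 148 tags at 223 tags per kb. The peak in Hnrnpa2b1 held 255 tags at 158 tags per kb but was assigned upstream of Cbx3, a heterochromatin protein gene. Pcbp1, an intronless poly(C)-binding protein gene, had 273 tags at 139 tags per kb.

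Ribosomal protein genes had a peak inside about as often as coding genes at large, but held more peaks per length. Of 82 genes, 27 had a peak inside (32.9%), close to the 33.3% of all coding genes. Per 100 kb of gene they held 10.7 peaks, against 1.38 over all coding genes. A peak of at least 20-fold was found in 11 (13.4%, against 1.59%). Rpl8 had 62 tags at 230 tags per kb and Rpl15 had 74 tags at 167 tags per kb. These were the 2 dense members (2.44%, against 0.274% of all coding genes). Rps18 and Rpl36al followed with 107 and 101 tags per kb. Promoter peaks were listed for 24 of the 82 (29.3%), against 7.32% of all coding genes; these genes are short, with a median span of 3.17 kb against 17.2 kb for all coding genes.

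Chaperone genes of the cytosol and mitochondria had a peak of at least 20-fold in 9 of 25 cases (36.0%, against 1.59% of all coding genes). Hspa1b, whose promoter is printed above, had 338 tags over 2479 bp, or 136 tags per kb, at 126-fold. Its near-identical neighbour Hspa1a had 163 tags at 92.4 tags per kb. Hsp90ab1 and Hsp90aa1, the cytosolic HSP90 genes, had 114 and 111 tags per kb. Hspa1b was the dense member of this list.

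Among 40 ER stress genes, 16 had a peak inside (40.0%, against 33.3% of all coding genes), 6 had a promoter peak (15.0%, against 7.32%) and 5 had a peak of at least 20-fold (12.5%, against 1.59%). Hspa5, the HSP70 chaperone of the ER known as BiP, was the dense one. Its peak on chromosome 2 (34775485 to 34776461) held 266 tags at 272 tags per kb and 82.9-fold, in the last part of the gene, 3883 bp after the start site. Hsp90b1, the HSP90 of the ER, had 23 tags at 79.3 tags per kb, and Manf, a secreted stress-induced factor, had 22 tags at 78.0. Calr, an ER lectin chaperone, had 17 tags at 73.9 tags per kb and 18.3-fold.

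The ER stress members apart from these had fewer tags per kb. Pdia4 and Atf4 still held more tags than Hsp90b1, Manf and Calr, over longer peaks (488 and 749 bp, against 290, 282 and 230 bp). Pdia4, a protein disulfide isomerase, had 35 tags at 71.7 tags per kb, and Atf4, a transcription factor of the stress response, had 49 tags at 65.4 tags per kb and 38.7-fold. The stress sensors Atf6 and Ern1 had 28.5 and 20.9 tags per kb with 14 and 13 tags, against a list median of 21.0 tags per kb and a 95th percentile of 37.5. Pdia4 and Atf4, with Hspa5, Hsp90b1 and Manf, make up the 5 genes of at least 20-fold. The peaks inside Manf, Calr and Pdia4 were assigned to Rbm15b, Farsa and Mir704, so a count by assigned gene would miss them. Genes named here beyond the leading 4 of the list were chosen after their values were seen.

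Nuclear protein genes gave a further set. Ptma, which encodes the small acidic protein prothymosin alpha, had 309 tags at 253 tags per kb and 229-fold. Ybx1 and Hmgn1 had 95.5 and 95.2 tags per kb, and Ncl, the nucleolin gene, had 62.1. Among 101 core and linker histone genes, H3f3b, a replacement histone H3 whose messenger is polyadenylated, had 208 tags at 168 tags per kb, and H2az1 had 117 tags per kb. Of the 101 histone genes, 10 had a peak inside (9.90%), against 33.3% of all coding genes, and their median span was 0.501 kb. A promoter peak was listed for 12.9%, against 7.32%, and 7 genes had a peak of at least 20-fold inside (6.93%, against 1.59%).

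Further dense peaks over coding genes were picked out after their values were seen. Vgf encodes a secreted neuropeptide precursor of neurons, and its exon peak on chromosome 5 (137032034 to 137032580) had 119 tags at 218 tags per kb and 108-fold. Cfl1, the cofilin gene, had 2 dense peaks of 159 and 161 tags. Calm2, a calmodulin gene, held 213 tags at 198 tags per kb, in a peak the list assigns upstream of Stpg4. Ctnnb1, the beta-catenin gene, had 42 tags in 239 bp, or 176 tags per kb.

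A peak listed in the promoter of Gpx1, an antioxidant enzyme gene, lay inside Rhoa (chromosome 9, 108336416 to 108337828). It held 189 tags, 134 tags per kb, at 128-fold. Matr3, a nuclear matrix gene, held 72 tags in a peak assigned to Paip2. Over the whole list, 2930 of 18566 peaks classed as upstream or intergenic (15.8%) lay over a protein-coding gene, and among the dense peaks 22 of 185 (11.9%) did. The assigned gene and the gene under the peak therefore differ in part of the list.

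Some genes annotated as coding are themselves retrogenes, inserted copies of a messenger that keep an open reading frame. Rps27rt, which lies in an intron of Osbpl10, had 233 tags at 341 tags per kb and 247-fold. Rpl37rt had 171 tags at 171 tags per kb, and Aldoart2, a copy of an aldolase messenger, had 205 tags at 182 tags per kb. These were also chosen after their values were seen, and they counted as coding genes, not pseudogenes, in the shares above.

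Genes of the retina's own functions had no dense peak, against 0.274% of all coding genes. Of 34 phototransduction and outer segment genes, 13 had a peak inside (38.2%, against 33.3% of all coding genes). None reached 20-fold, against 1.59%. For counting error only, 0 of 34 allows a share of up to 8.82%, an approximate bound and not a Wilson one. With lists this short, 0 cannot be told apart from the shares of all coding genes. The densest were Gnb1, a G-protein beta subunit, at 35.1 tags per kb, the rod channel subunit Cngb1 at 30.4, Rp1 at 28.7 and the cone channel subunit Cngb3 at 26.3. Retinal transcription factors had a peak inside in 6 of 27 genes (22.2%), led by Sox2 at 25.3, Rorb at 22.4 and Nrl, the rod factor, at 21.8 tags per kb, then Lhx4. The values named in both lists ran up to that of Gnb1, below the 95th percentile of 37.5 tags per kb.

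The VEGF, hypoxia and angiogenesis list had a peak inside in 17 of 30 genes (56.7%, against 33.3% of all coding genes), with a median span of 34.5 kb per gene, against 17.2 kb. One of at least 20-fold outside pseudogenes was found in 1 of 30 (3.33%, against 1.59%). Besides Flt1, its densest members were Nrp2, a VEGF co-receptor, at 32.6, Hif1a, the hypoxia-regulated transcription factor subunit, at 32.3 and 21.5-fold, and its partner Arnt at 30.3 tags per kb. Vegfa itself (chromosome 17, 46016993 to 46032377) had 2 peaks inside and 4 assigned. They had 24.9 tags per kb in the promoter, 20.7 upstream, 20.6 in an exon and 21.3 in intergenic sequence, with 10 to 17 tags each. The promoter peak was denser than 77.0% of the list but held 11 tags, the median number.

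Pentose phosphate genes had no peak of at least 20-fold in the gene, against 1.59% of all coding genes. Of 14 genes, 5 had a peak inside (35.7%, against 33.3%) and none had one in the promoter class (against 7.32%). With 14 genes, 0 allows a share of up to about 21.4%, so it cannot be told apart from these shares. Taldo1, the transaldolase gene, had 20 tags at 32.8 tags per kb, Rpe had 23.6 tags per kb, Dera 19.6 and Pgd 18.8. Tkt, which encodes transketolase, had no peak inside or assigned to it; the nearest was 91101 bp away, with 12 tags at 19.9 tags per kb. A dense peak of 206 tags is listed upstream of Tktl1 on chromosome X, but it overlaps Rpl3-ps2, while the peak inside Tktl1 had 10 tags.

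Glycolysis, the proteasome and the immediate early genes each gave 1 or 2 genes of at least 20-fold. These were 1 of 19 (5.26%), 2 of 39 (5.13%) and 2 of 25 (8.00%), against 1.59% of all coding genes. In glycolysis, Eno3, Aldoa and Pkm had 62.7, 58.6 and 53.5 tags per kb, and Eno1 had 26.2. The proteasome subunit genes Psmb5 and Psmd7 had 96.1 and 93.7 tags per kb, followed by Psmc2 at 28.2 and Psmd14 at 26.5. Among immediate early genes, which cells switch on within minutes of a stimulus, Junb had 95.2 tags per kb, Nr4a2 40.4, Jun 35.7 and Klf6 29.2. None of these lists had a dense member, but they are too short to tell 0 apart from the 0.274% of all coding genes.

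Clock, lens and red-cell genes had no dense peak and none of at least 20-fold, against 0.274% and 1.59% of all coding genes. With 21, 19 and 12 genes, 0 allows shares of up to about 14.3%, 15.8% and 25.0%. It cannot be told apart from the shares of all coding genes. Of 21 clock genes 11 had a peak inside (52.4%, against 33.3%), with a median span of 35.1 kb. The 4 densest clock genes were Rora at 38.4 tags per kb, Nr1d1 at 28.0, Per3 at 23.3 and Nr1d2 at 22.5. Crystallin genes, which mark lens and stressed glia, were led by Cryab at 50.8, then Crybg3 at 25.9, Cryba2 at 23.4 and Crybg1 at 20.6 tags per kb. In the hemoglobin and erythroid list, which marks blood cells, 3 of 12 genes had a peak inside (25.0%, against 33.3% of all coding genes). They were led by Slc4a1 at 20.4 tags per kb, with Epb42 at 19.0. Of 19 crystallin genes 6 had a peak inside (31.6%, against 33.3%).

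**Figure D3:**
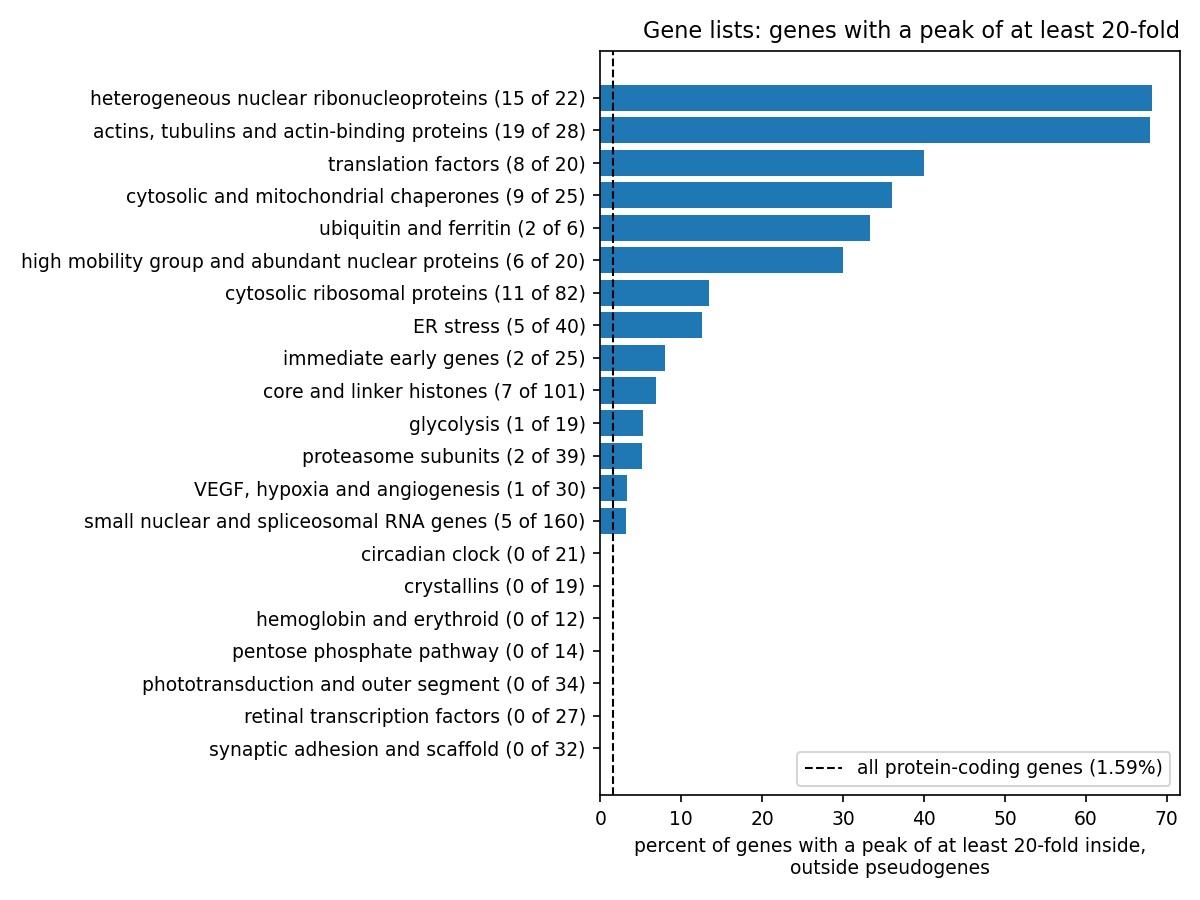
Percent of the annotated genes in each of the 21 lists with a peak of at least 20-fold inside the gene and outside pseudogenes (bars, with counts in the labels); the dashed line is the 1.59% of all protein-coding genes. Heterogeneous nuclear ribonucleoprotein genes (68.2%) and cytoskeletal genes (67.9%) lead, and 7 lists, phototransduction and the pentose phosphate pathway among them, have none.

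The genes with most peaks were long ones, and they held no dense peak outside pseudogenes. Macrod2 held 39 peaks over 1998 kb, the most of any gene, with a densest peak of 37.3 tags per kb. Next came the immunoglobulin locus Igk with 33 peaks, the synaptic scaffold gene Dlg2 with 30 and the receptor phosphatase gene Ptprd with 23. Lrp1b, Ccser1 and Dcc had 22 each. Lrp1b had one peak of 344 tags per kb, which lay over the pseudogene Gm13461. Of 32 genes for synaptic adhesion and scaffold proteins, 24 had a peak inside (75.0%, against 33.3% of all coding genes). Their median span was 774 kb, against 17.2 kb for all coding genes. The densest were Magi1 at 42.1, Ntm at 39.2, Csmd3 at 39.1 and Cntnap2 at 38.5 tags per kb. None of the 32 had a dense peak or one of at least 20-fold outside pseudogenes. With 32 genes, 0 allows a share of up to about 9.38%, so it cannot be told apart from the 0.274% and 1.59% of all coding genes. Per length these synaptic genes were not rich in peaks, with 1.03 peaks per 100 kb, against 1.38 over all coding genes.

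Exon peaks were counted along their transcripts; those within 2 kb of a start site are in the promoter class and not among them, which removes peaks from the first stretches, most of all in short genes. Exon peaks of at least 20-fold, outside pseudogenes, lay in the last of 4 equal stretches of the assigned transcript in 115 of 144 cases (79.9%), with 23, 5 and 1 in the earlier stretches, counted back towards the start. Exon peaks under 20-fold were also most often in the last stretch, at 559 of 805 (69.4%). The stretches divide the genomic span, introns included. How much exon sequence each stretch holds is unknown here, so whether these shares exceed it was not tested. Intron peaks under 20-fold were spread evenly, with 25.5%, 27.8%, 25.2% and 21.5% from the first to the last stretch. The 38 intron peaks of at least 20-fold had 18 and 15 in the last 2 stretches. Hspa5 and Tuba1c are examples of peaks near the transcript end, with centres 3883 and 7717 bp after their start sites.

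**Figure D4:**
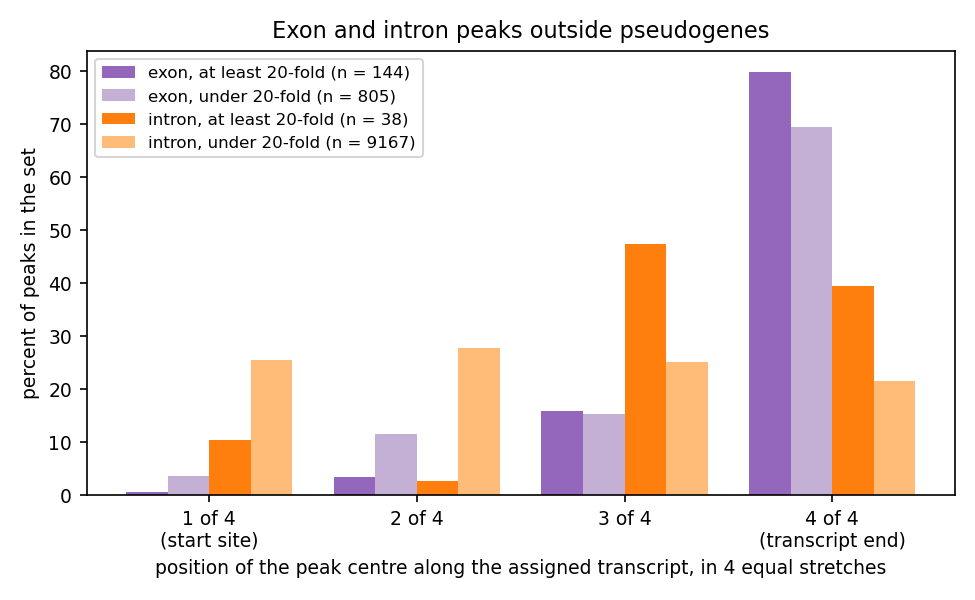
Percent of peaks (vertical) with their centre in each of 4 equal stretches of the genomic span of the assigned transcript (horizontal), for exon and intron peaks outside pseudogenes, split at 20-fold. The 4 sets hold 144, 805, 38 and 9167 peaks. Exon peaks, from which those within 2 kb of a start site are set apart as promoter peaks, are most frequent near the transcript end, with 79.9% at 20-fold or more and 69.4% below it, and intron peaks under 20-fold stay between 21.5% and 27.8%.

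The authors' classes differed in their upper range rather than in their middle. Exon peaks (963, 3.13% of the list) had a median of 24.0 tags per kb and a 95th percentile of 89.2, and 15.6% of them reached 20-fold. Promoter peaks (1778, 5.77%) had a median of 21.5 and a 95th percentile of 64.9, with 7.71% at 20-fold or more. Upstream peaks (4450) reached 20-fold in 4.97% of cases, intergenic peaks (14116) in 2.78% and intron peaks (9484) in 1.82%. Medians of upstream, intron and intergenic peaks were 21.2, 20.8 and 20.9 tags per kb.

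Within the promoter class, which reaches 2 kb to either side of the start site, peaks lay more often downstream. The downstream side held 1008 peaks (56.7%, 54.4 to 59.0) and the upstream side 770. The strong peaks leaned further, with 106 of 1008 downstream peaks at 20-fold or more (10.5%, 8.77 to 12.6), against 31 of 770 upstream (4.03%, 2.85 to 5.66). Dense peaks numbered 24 downstream and 7 upstream. Pabpc1, Cfl1 and Pcbp1 were of the downstream kind, centred 326, 1987 and 1112 bp after the start.

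Few peaks covered the promoter sequence itself. Of 32851 promoter windows in the RefSeq table, each 250 bases before to 50 after a start site, 473 lay under a peak (1.44%) and 21 under a peak of at least 20-fold (0.0639%). The Vim peak of 93 tags (115 tags per kb, 69.1-fold) covered 163 of the 300 bases, the Hspa1b peak covered 148, and the Serbp1 peak of 81 tags (106 tags per kb, 44.7-fold) covered all 300. At Ubb, the densest peak of the promoter class touched 11 bases, all after the start site. The printed Vim promoter has a TATA box and 2 CCAAT boxes, that of Hspa1b has 3 GC boxes, a CCAAT box and a heat shock element, and that of Serbp1 has a GC box. These were marked over all 250 bases, not only under the peak. The first CCAAT box of Vim and the first GC box of Hspa1b, as printed, lay outside the peak. The heat shock element of Hspa1b lay across the edge of its peak, mostly outside it.

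Across windows, the GC box was found in 39.1% (34.8 to 43.6) of those under a peak, against 32.7% of all windows. The intervals treat windows as separate. Some windows overlap or share a peak, as those of Epn1 do, so the intervals may be too narrow. The TATA box was found in 11.8%, against 12.4%, and the CCAAT box in 33.6%, against 33.8%. Heat shock elements occurred in 4.86% (3.26 to 7.19), against 6.69%. The E-box CACGTG occurred in 5.07%, against 6.02%. The ER stress response element, searched as CCAATNNNNNNNNNCCACG, occurred in 0 of 473 windows, with a Wilson upper bound of 0.806%, against 0.113% of all windows. The CCAAT box lies within that element, and GC content was higher under peaks, with a median of 54.8% against 52.4%.

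Of 1005 microRNA hairpins in the table, 17 lay under a peak (1.69%, 1.06 to 2.69) and 1 under a dense one, beside the 1.44% of promoter windows under a peak. Mir682 on chromosome 13 (75645046 to 75645141) was that one, with 201 tags at 528 tags per kb and 216-fold, and its peak also overlapped the pseudogene Gm4149. The others in the printed set lay inside host genes. Mir3064 shares a peak of 302 tags (119 tags per kb) with Ddx5, an RNA helicase gene. Mir686 shares one of 32 tags (96.1 tags per kb) with Psmb5, Mir6935 one of 92 tags (69.3 tags per kb) with the gamma-actin gene Actg1, and Mir677 one of 30 tags (48.7 tags per kb) with Atp5b, an ATP synthase gene. A peak cannot be credited to the microRNA rather than to its host or the pseudogene.

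Chromosomes differed little in the common peaks, except for X and Y. The autosomes held 30325 peaks, at 12.4 per Mb, between 11.4 on chromosome 14 and 14.2 on chromosome 19, and their median densities lay between 20.7 and 21.2 tags per kb. Chromosome X held 421 peaks, at 2.47 per Mb, and chromosome Y 45, at 0.495 per Mb. Dense peaks did not follow that gap: X had 19, or 11.1 per 100 Mb, against 11.5 per 100 Mb on the autosomes. As a share, 4.51% of the X peaks were dense and 13.5% reached 20-fold, against 0.927% and 3.35% on the autosomes.

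The dense X peaks lay on pseudogenes in 17 of 19 cases. The densest, 228 tags at 425 tags per kb and 150.5-fold, overlapped Rpl7a-ps12 and Rps7-ps3 and was assigned to Usp51. Slc25a5, which encodes a mitochondrial ADP/ATP carrier, was the coding gene among them, with 169 tags at 234 tags per kb. Of 1012 pseudogenes on X, 6.62% lay under a peak and 1.68% under a dense one, against 13.8% and 2.12% of the 9496 on the autosomes. Chromosome Y had no dense peak, and its densest, over Gapdh-ps15 and assigned to Gm20901, had 53 tags at 77.1 tags per kb. The sex of the animals and the input coverage of X and Y are not given in the sources used here.

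Among the autosomes, dense peaks per 100 Mb ran from 5.10 on chromosome 16 to 16.4 on chromosome 15. The densest peaks of other chromosomes were pseudogene peaks in many cases. They were Gm4204, assigned to Elf3, on chromosome 1 (422 tags per kb), Rpl10-ps5 in Nup93 on chromosome 8 (384), Gm10335 in Adgrg6 on chromosome 10 (349), Gm4468 in Lima1 on chromosome 15 (396) and Eef1a1-ps1, assigned to Pcsk5, on chromosome 19 (367). On chromosome 11 the densest was a peak assigned to Axin2 that overlaps the long noncoding RNA gene Gm36876, with 692 tags per kb at 11.3-fold. Chromosomes 2 and 14, which carry the tag-rich peaks of low fold, held 8.67% and 6.07% of all tags.

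**Figure D5:**
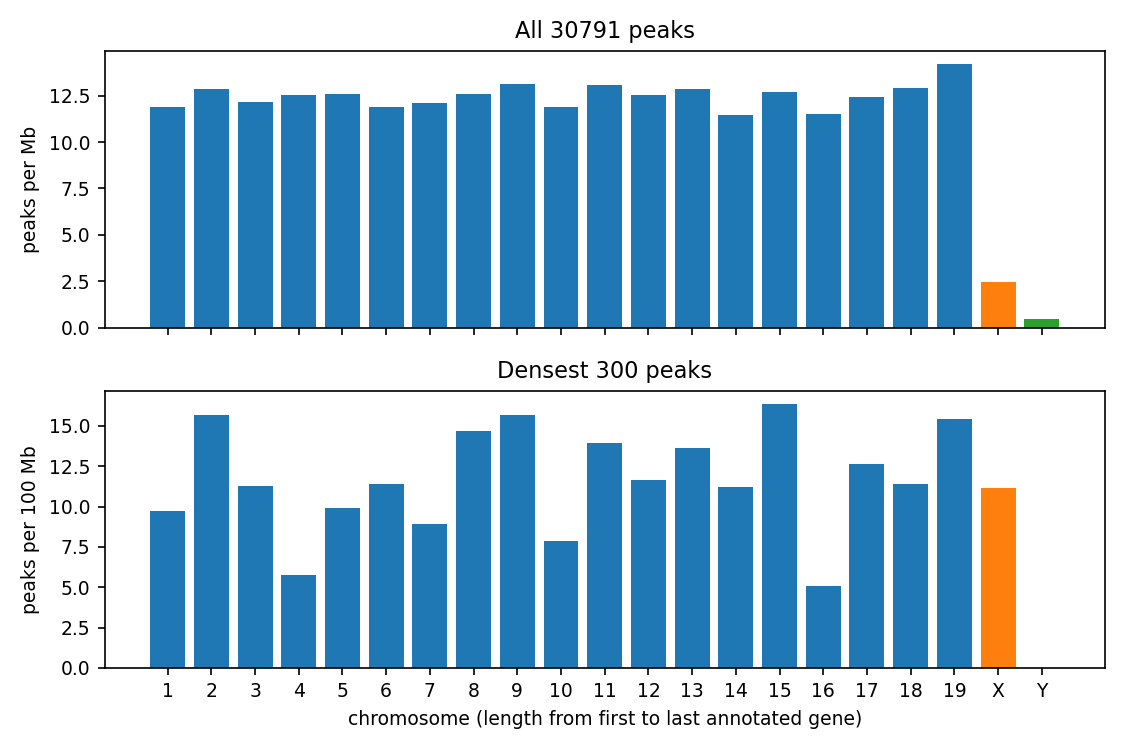
Peaks per Mb for all 30791 peaks (top) and peaks per 100 Mb for the 300 densest (bottom), by chromosome, over the length from the first to the last annotated gene. Chromosome X has 2.47 peaks per Mb, against 12.4 on the autosomes, but 11.1 dense peaks per 100 Mb, against 11.5.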

How the data were processed

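ChIP DNA and input DNA of induced retina gave 1 library each, and the authors called peaks on that pair, without pooling. Alignment with Bowtie2 2.2.7 to mm10 (GRCm38) and FastQC were stated, per the submitters' processing notes; which program called the peaks and the handling of reads that fit several places are not given in the sources used here. Per the file headers, the authors deposited for each peak a whole-number count of ChIP tags, a fold (ratio to a background), a score of 10 times the −log10 p and a false discovery rate in percent. Fold, score and rate are the authors' own and were used within this list, to describe and filter peaks. The authors' classes were kept: promoter, with the centre within 2 kb of a start site, upstream, 2 to 20 kb before it, then exon, intron and intergenic.

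Lines were collapsed to 1 per position and ranked by tags per kb. Total library depth is unknown, since tags are given within peaks. Genes and pseudogenes came from a RefSeq table of GRCm38.p6, which matched 99.8% of lines by transcript accession and holds no strand or exons; an overlap was at least 1 bp. Peaks inside a gene were found by position, and those on pseudogenes were left out of the gene counts where stated. Chromosome length ran from the first to the last gene. Shares have 95% Wilson intervals, except that the upper bounds for gene lists with no such gene are approximate. With 1 library no test was run. The overlaps, tested on simulated data, used matplotlib 3.10.9 for plots, scipy 1.17.1, numpy 2.4.6 and pandas 2.3.3 under Python 3.11.15. A further 3 sheets held no values.

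The members and gene lists were chosen with earlier results of these data known. Named genes followed a rule: the 20 densest peaks, the 3 densest of each class, the densest of each chromosome, the 5 genes with most peaks, the 4 members of each list with the densest peak, and Tkt and Vegfa; others are said to be chosen later. A few genes the rule names are not reported here. Alternatives were other p, tag and rate limits, rankings by tag count or fold, sets of 100 or 1000, other overlap rules, a 1 kb promoter and a limit on length.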

Additional observations from a re-analysis of the deposited data

How the results depend on the processing

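No paired analysis was possible because the list rests on 1 ChIP library. Of the values recomputed under other settings, 18 stayed and 19 moved. Shares and medians stayed if they lay within the 95% interval of the main value. Counts and peaks per Mb stayed if they lay within a fixed ratio of it. The share of dense peaks on pseudogenes lay between 61.8% (densest 1000) and 78.0% (ranked by fold). Limits on strength kept 1868 peaks at −log10 p of at least 10 and 1695 at 20 tags or more; the promoter share was then 11.5% and 11.2%, the median density 51.0 and 53.3 tags per kb, the tag share of the 300 densest 58.0% and 57.9%, and chromosome X held 0.480 and 0.369 peaks per Mb. Fewer, stronger peaks enter by construction. The tag share was 17.9% ranked by tag count, 12.5% by fold, 10.8% for 100 and 25.0% for 1000 peaks; genes with a dense exon or promoter peak numbered 21 and 249 for those set sizes, against 51. A 1 kb promoter held 3.36% of peaks, and the median density was 20.7 for lengths between the 5th and 95th percentile. A rate limit of 1% removed nothing (highest 0.64%), so its values, counted among the 18, could not move. The limit of 20 tags removed no dense peak. The pseudogene share and the gene count under it, also counted among the 18, could not move either. The limit on p removed only Asmt, Adgre5, Flt1 and Ttc21b from the dense peaks, so it left these values little room to move. Taking the 300 densest among peaks of at least 20-fold, added after seeing the data, gave 78.0% and 54 genes. Most peaks rest on few tags (10 to 13 in 82.0%), which limits the precision of their density; library depth is unknown.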

Other observations

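Neighbouring peaks and small RNA genes add detail. Most peaks stood alone: 23389 (76.0%) had no other peak within 10 kb, and 10 runs held 5 or 6 peaks. The longest by number, 6 peaks over 26.0 kb at Ankrd44 and the splicing factor gene Sf3b1, held 75 tags in all, while the 5 peaks at Pabpc1 held 516. Of 160 small nuclear and spliceosomal RNA genes, 11 had a peak inside (6.88%, against 33.3% of all coding genes, which are longer). One of at least 20-fold was found in 5 (3.13%, against 1.59% of all coding genes). Over all annotated genes other than pseudogenes, these 2 shares were 24.1% and 0.941%. The densest were Rn7s1, a signal recognition particle RNA gene, at 113 tags per kb, then Snora75 at 62.1, Rn7sk, the 7SK RNA gene, at 62.0 and Rn7s2 at 56.8. Such RNA genes have many near copies in the genome, so their tags may be shared among copies.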
